A study of Caenorhabditis elegans with 2 samples.

Results

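The genes described here encode the nuclear subunits of the mitochondrial respiratory chain and the ATP synthase, leaving out cytochrome oxidase. They were taken by name from the Ensembl annotation of the WBcel235 assembly: every protein-coding gene on a nuclear chromosome whose name begins with nuo-, nduf-, nduo-, sdha-, sdhb-, sdhd-, ucr-, cyc-, atp-, asb- or asg-, together with gas-1, mev-1 and isp-1. This gave 36 of 19973 genes: 13 of complex I, 5 of complex II, 7 of complex III, 2 of cytochrome c and 9 of the ATP synthase. No gene with the prefix nduo- lies on a nuclear chromosome, and subunits under other names, such as lpd-5, hpo-18 and ndua-13, are not taken by the rule.

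Binding was measured by chromatin immunoprecipitation with sequencing (ChIP-seq), which recovers the DNA bound by a protein, in 2 biological replicates of 1 group of Caenorhabditis elegans. The target was NHR-77, a nuclear hormone receptor, carried as an eGFP fusion by the transgene insertion wgIs353 in strain OP353, which also holds the unc-119(tm4063) allele on chromosome III. Whole L4 larvae, with the sexes pooled, were used, so sites of all tissues are mixed. The authors used 1 common control for calling in both replicates. An untagged strain was not analysed here, so recovery that does not depend on NHR-77 cannot be told apart from binding by it.

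Each respiratory complex hands electrons on or uses the proton gradient they build. Complex I (NADH dehydrogenase) and complex II (succinate dehydrogenase) feed electrons to ubiquinone, complex III passes them to cytochrome c, cytochrome oxidase delivers them to oxygen, and the ATP synthase makes ATP from the proton gradient. In C. elegans, mutants of isp-1 and nuo-6 are known for long life, and those of gas-1 and mev-1 for short life and sensitivity to oxygen. Subunit roles below are those given by RefSeq product names or known from mammals and yeast.

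A peak here is a region of the authors' IDR-thresholded set. IDR, the irreproducible discovery rate, measures how alike regions rank in the replicates. In these files the set equals the 3457 strongest regions of the pooled list, so a single peak need not rank alike in both replicates. A gene counts as having a peak when the summit lies within 500 bp of any of its annotated protein-coding starts. These 9 windows of 101 bp around such summits were picked to show certain runs of letters or their absence. The sequence is that of the RefSeq genome (WBcel235, the same build as ce11), read 5′ to 3′ on the strand of the gene. Capitals mark CCGCCC (a GC box), the word GCGAGA or the word CGTCTC, on either strand. The windows from asb-2 to cyc-2.1 hold at least 1 of the words, and the isp-1 window holds only the GC box. At least 1 of the words is in 8 of all 17 windows. The asg-2 window, around the strongest summit shown, holds none of the marked letters. The sdhb-1 window is at the weakest peak of all 17 and is rich in A and T (27.7% G and C).
asb-2 (chrX:4469429-4469529, plus strand): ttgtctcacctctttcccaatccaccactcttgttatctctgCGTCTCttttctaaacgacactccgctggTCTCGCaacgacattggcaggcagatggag
atp-2 (chrIII:5228094-5228194, plus strand): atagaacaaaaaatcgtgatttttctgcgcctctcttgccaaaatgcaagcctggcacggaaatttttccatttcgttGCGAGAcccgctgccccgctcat
nuo-1 (chrII:11097484-11097584, plus strand): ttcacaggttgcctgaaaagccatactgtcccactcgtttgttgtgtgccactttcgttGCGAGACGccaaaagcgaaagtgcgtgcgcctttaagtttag
mev-1 (chrIII:10334107-10334207, plus strand): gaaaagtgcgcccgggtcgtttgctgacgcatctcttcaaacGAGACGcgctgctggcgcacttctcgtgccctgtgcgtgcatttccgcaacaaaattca
ucr-2.2 (chrX:15173650-15173750, plus strand): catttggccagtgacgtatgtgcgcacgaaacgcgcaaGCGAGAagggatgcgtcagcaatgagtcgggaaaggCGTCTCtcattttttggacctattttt
cyc-2.1 (chrIV:4748516-4748616, minus strand): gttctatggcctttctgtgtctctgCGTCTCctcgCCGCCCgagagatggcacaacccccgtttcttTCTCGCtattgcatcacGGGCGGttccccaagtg
isp-1 (chrIV:8136234-8136334, minus strand): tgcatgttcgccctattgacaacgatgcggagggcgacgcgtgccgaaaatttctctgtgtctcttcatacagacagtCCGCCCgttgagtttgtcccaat
asg-2 (chrX:6841002-6841102, plus strand): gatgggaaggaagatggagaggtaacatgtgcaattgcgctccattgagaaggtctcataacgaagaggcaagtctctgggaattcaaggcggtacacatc
sdhb-1 (chrII:9352846-9352946, minus strand): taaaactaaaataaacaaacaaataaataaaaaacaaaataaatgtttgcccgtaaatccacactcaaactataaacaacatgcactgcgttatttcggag

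Of the 36 respiratory genes, 17 had a peak (47.2%), against 2047 of all 19973 protein-coding genes (10.2%). By complex, 6 of 9 ATP synthase genes had one, 4 of 7 genes of complex III, 3 of 5 of complex II, 1 of 2 cytochrome c genes and 3 of 13 of complex I. The difference between complex I and the others was not tested. The 17 genes had 17 distinct peaks, so no peak was counted for a pair of these genes. Their pooled signal, the authors' enrichment value, ranged from 47.4 to 146 with a median of 98.6, against a median of 69.5 over all genes with a peak. The median rank in the pooled list, where 1 is the strongest region, was 702, against 1603 over all genes with a peak.

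These peaks stood mostly in the upper part of the set, yet not at its very top. Of the 17 genes with a peak, 7 had one among the 500 strongest regions (41.2%), against 18.5% of all genes with a peak. Among the 1000 strongest were 11 of 17 (64.7%), against 32.6%. The 250 strongest held 1 of 17 (5.88%), against 9.43%. The values fell into groups with a gap between them: 12 genes ranked from 220 to 1011, 2 genes at 2018 and 2031 and 3 genes between 3185 and 3358, close to the last rank of the set, 3457.

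**Figure D1:**
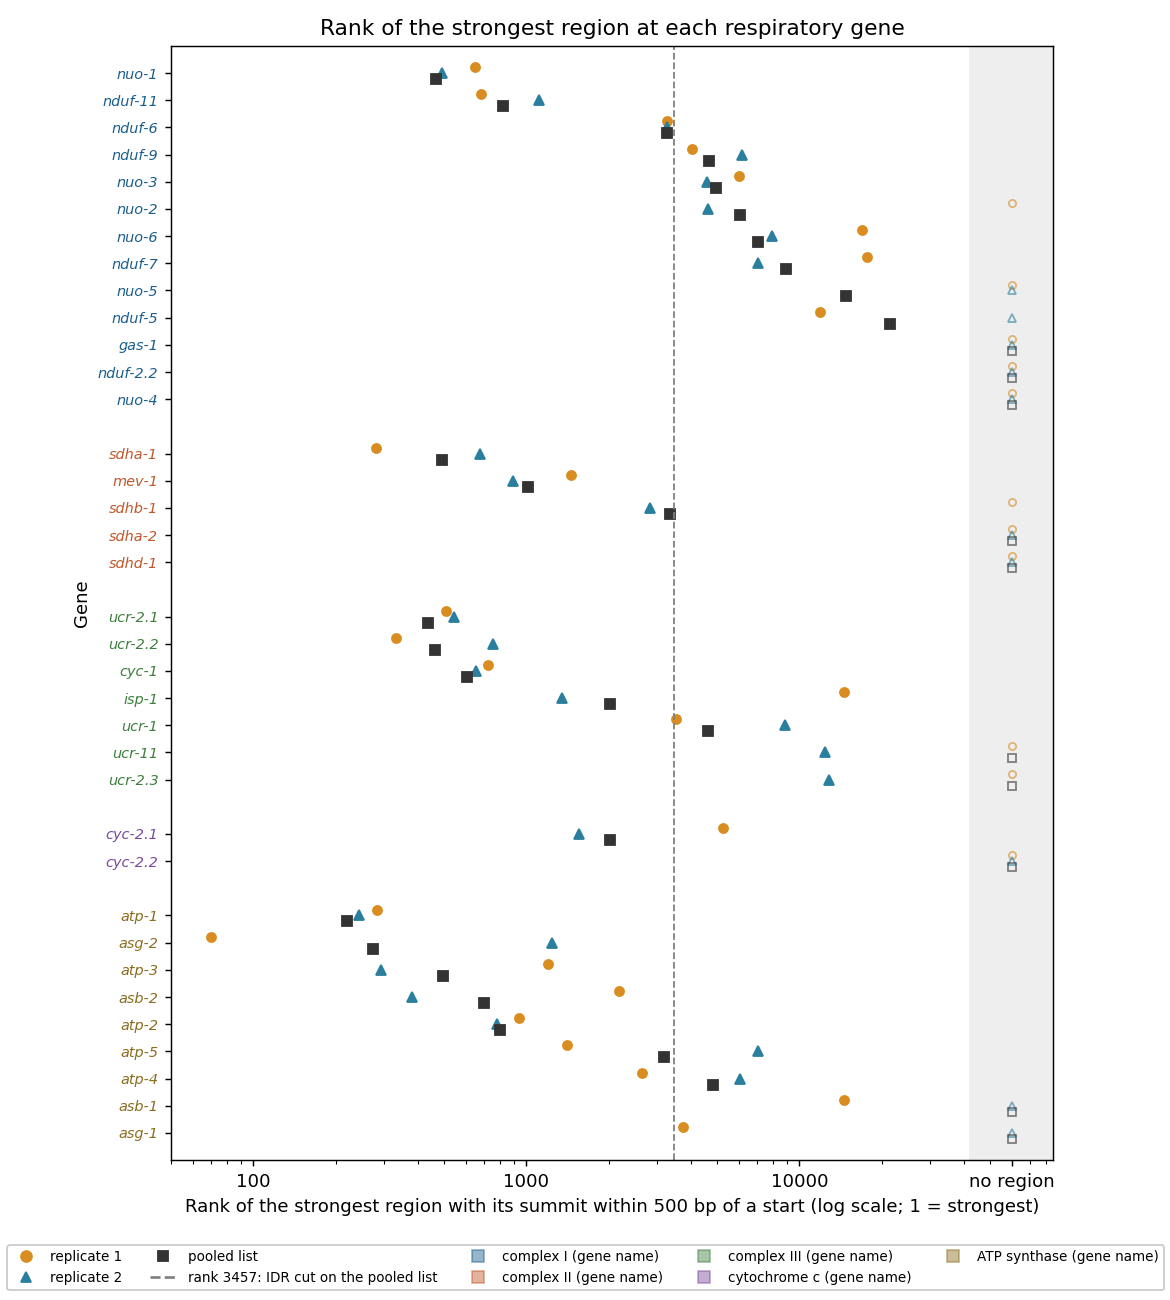
Rank of the strongest region within 500 bp of a start for each of the 36 genes (log axis, 1 = strongest) in replicate 1 (circles), replicate 2 (triangles) and the pooled list (squares), with gene names coloured by complex, open symbols for no region and a dashed line at rank 3457. The 17 genes with a peak have their squares left of the line. Gaps between the replicates are wide at several of them, among them asg-2, isp-1, asb-2 and atp-5, and sdhb-1 has no region in replicate 1.

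The ATP synthase genes held both strongest peaks. The strongest belonged to atp-1, which encodes the alpha subunit of the catalytic head. Its signal was 49.2 in replicate 1 (rank 283), 95.7 in replicate 2 (rank 243) and 146 in the pooled list (rank 220). Both replicates ranked it high. This peak (chromosome I, 12652187 to 12652369) was also the only one of the 17 with its summit downstream of the nearest start of its gene. The summit lay at 16 bp, in the 5′ UTR exon of atp-1. The start of mcrs-1, on the other side, lay 206 bp from the same summit.

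The second was asg-2, which encodes a subunit g of the membrane part (chromosome X, 6840962 to 6841115, summit 206 bp upstream). It had a signal of 80.9 in replicate 1 (rank 70), 53.6 in replicate 2 (rank 1242) and 136 in the pooled list (rank 274). Its rank was thus far better in replicate 1 than in replicate 2, and the start of the glutamate receptor gene glr-6 lay 332 bp from the summit. The other 4 ATP synthase genes with a peak leaned both ways. The gene atp-3, for the oligomycin sensitivity conferring protein of the stalk, had signals of 30.0 in replicate 1 (rank 1199), 89.2 in replicate 2 (rank 293) and 111 in the pooled list (rank 495). Its summit lay 62 bp upstream (chromosome I, 5429870 to 5430019), inside the noncoding RNA genes F27C1.16 and F27C1.17 and 187 bp from the start of F27C1.2.

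The gene asb-2 encodes a subunit b of the stator stalk and had signals of 23.3 in replicate 1 (rank 2184), 82.4 in replicate 2 (rank 381) and 98.6 in the pooled list (rank 702). Like atp-3 it ranked better in replicate 2. Its summit lay 287 bp upstream (chromosome X, 4469299 to 4469658) with no other protein-coding start within 500 bp. For atp-2, the beta subunit that forms ATP, the ranks were close, with signals of 32.8 in replicate 1 (rank 942), 64.0 in replicate 2 (rank 782) and 93.2 in the pooled list (rank 798). Its summit (chromosome III, 5227964 to 5228323), 273 bp upstream, was slightly nearer to the starts of C34E10.10 at 260 bp and C34E10.12 at 263 bp. The weakest was atp-5, for subunit d of the stalk, with signals of 28.1 in replicate 1 (rank 1410), 18.4 in replicate 2 (rank 7042) and 49.1 in the pooled list (rank 3185). It was the 1 gene of the 17 found among the 3457 strongest regions of replicate 1 but not of replicate 2, and its summit (chromosome V, 11123910 to 11124269) lay 223 bp from atp-5 and 96 bp from lmtr-3.

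Complex III, the cytochrome bc1 complex, had peaks at both of its X-linked core 2-type genes. The genes ucr-2.1 and ucr-2.2 encode proteins of the peptidase M16 family. In ucr-2.1 the signal was 40.8 in replicate 1 (rank 506), 73.9 in replicate 2 (rank 541) and 115.4 in the pooled list (rank 436). In ucr-2.2 it was 46.5 in replicate 1 (rank 333), 64.9 in replicate 2 (rank 756) and 114 in the pooled list (rank 461). Both genes thus ranked high in each replicate. The ucr-2.1 summit (chromosome X, 12017967 to 12018326), 282 bp upstream, was nearer to nmat-1 at 104 bp, while the ucr-2.2 summit (chromosome X, 15173520 to 15173879), 204 bp upstream, had no other start within 500 bp.

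Electrons leave complex III through the Rieske iron-sulfur protein, encoded by isp-1, and cytochrome c1, encoded by cyc-1. At cyc-1 the replicates ranked alike, with signals of 36.3 in replicate 1 (rank 722), 67.8 in replicate 2 (rank 652) and 103 in the pooled list (rank 606). Its summit lay 330 bp upstream (chromosome I, 8024572 to 8024931), with no other start within 500 bp. The isp-1 peak rested on replicate 2. There its signal was 51.8 (rank 1347), and in the pooled list 62.4 (rank 2031). The strongest region of replicate 1 near its start had a signal of 8.41 (rank 14519) and a summit 172 bp downstream, and the replicate 1 region that overlaps the peak had 7.15 (rank 18957). The isp-1 summit (chromosome IV, 8136104 to 8136463) lay 229 bp upstream and 105 bp from islo-1. Mobile cytochrome c itself has the gene cyc-2.1, with signals of 14.7 in replicate 1 (rank 5258), 48.3 in replicate 2 (rank 1559) and 62.6 in the pooled list (rank 2018). This peak too was stronger in rank in replicate 2, and its summit lay in an intron of the longer transcript of cyc-2.1, 117 bp upstream of the other start (chromosome IV, 4748386 to 4748745).

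In complex II, which also works in the citric acid cycle, the strongest peak was at sdha-1, the flavoprotein that oxidises succinate. Its signal was 49.2 in replicate 1 (rank 282), 66.9 in replicate 2 (rank 676) and 112 in the pooled list (rank 489). The summit lay 220 bp upstream in the noncoding RNA gene D2021.5 (chromosome X, 8546061 to 8546420). The membrane anchor gene mev-1, for the cytochrome b560 subunit, had signals of 27.7 in replicate 1 (rank 1455), 60.7 in replicate 2 (rank 896) and 84.6 in the pooled list (rank 1011). Its summit (chromosome III, 10333977 to 10334336) was nearly midway between mev-1 at 120 bp and jmjd-4 at 139 bp. The iron-sulfur subunit gene sdhb-1 had no region in replicate 1, a signal of 35.4 in replicate 2 (rank 2841) and 47.4 in the pooled list (rank 3358). It was the weakest of the 17 peaks and the only one with no region near the start in a replicate, and its summit (chromosome II, 9352716 to 9353075) lay 165 bp from sdhb-1 and 104 bp from cup-15. The second anchor gene, sdhd-1, had no region within 500 bp in any list.

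Complex I, the largest complex of the chain, had 3 of 13 genes with a peak (23.1%). This count depended on the rule: it was 1 of 13 (7.69%, against 6.84% of all genes) with a window of 250 bp, and 7 of 13 (53.8%, against 20.7%) with all pooled regions of q under 0.05. Any region of the pooled list was near 10 of 13 (76.9%, against 37.8%). The gene nuo-1 encodes the flavoprotein that takes up electrons from NADH. It had signals of 37.3 in replicate 1 (rank 649), 76.2 in replicate 2 (rank 489) and 113 in the pooled list (rank 467). Its summit (chromosome II, 11097354 to 11097713) lay 303 bp upstream and 330 bp from the ribosomal protein gene rpl-36.A, inside the noncoding RNA gene C09H10.13. The membrane subunit gene nduf-11 had signals of 36.8 in replicate 1 (rank 683), 56.0 in replicate 2 (rank 1116) and 92.1 in the pooled list (rank 819), with a summit 194 bp upstream (chromosome II, 11345634 to 11345993). At nduf-6, an iron-sulfur protein gene, the replicates ranked almost alike, with signals of 19 in replicate 1 (rank 3273), 32.4 in replicate 2 (rank 3261) and 48.3 in the pooled list (rank 3267). Its summit (chromosome I, 7090225 to 7090584) was 335 bp from nduf-6 and 343 bp from nars-1, the asparaginyl-tRNA synthetase gene.

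Of the 19 genes without a peak, 9 had a weaker region of the pooled list within 500 bp, 4 had a region only in a replicate list and 6 had none. The strongest of these 9 pooled regions was at ucr-1, the core 1 gene of complex III, with a pooled signal of 37.8 (rank 4624). The signals at ucr-1 were 18.2 in replicate 1 (rank 3534) and 15.5 in replicate 2 (rank 8848). Close to it were nduf-9 (pooled signal 37.6, rank 4657; ranks 4029 and 6172 in replicates 1 and 2), atp-4 for coupling factor 6 (36.6, rank 4815; ranks 2643 and 6037) and nuo-3 (35.9, rank 4949; ranks 6009 and 4581). These 4 pooled signals lay below the lowest of the set, 46.7, while nduf-6 and sdhb-1 lay just above it. Further complex I genes followed, with pooled signals of 30.7 at nuo-2 (rank 6049, no region in replicate 1 and rank 4613 in replicate 2), 27.2 at nuo-6 (rank 7075) and 22.7 at nduf-7 (rank 8958). The regions at nuo-5 and nduf-5 ranked below 10000. Regions in 1 replicate only were listed at asb-1 and asg-1 in replicate 1 and at ucr-11 and ucr-2.3 in replicate 2, and the best of these was asg-1 (signal 17.6, rank 3752). No list had a region near gas-1, nduf-2.2, nuo-4, sdha-2, sdhd-1 or cyc-2.2.

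The replicates were set side by side over these genes. Of the 17 genes with a peak, 13 were within the 3457 strongest regions of both replicates, 3 (cyc-2.1, isp-1 and sdhb-1) of replicate 2 only and 1 (atp-5) of replicate 1 only. The rank was better in replicate 2 for 11 and in replicate 1 for 6, counting sdhb-1 for replicate 2. Over the 22 genes with a region in both replicate lists, the ranks had a Spearman rho of 0.69, and over the 16 of them with a peak 0.42. All points share the 2 libraries and the control, so these are descriptions of the lists.

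The share of respiratory genes was above that of all genes at every number of regions counted. The 1000 strongest regions reached 25.0% of the respiratory genes in replicate 1, against 3.34% of all protein-coding genes. In replicate 2 they reached 27.8%, against 3.24%. With all 30000 regions of a list, background included, 25 of 36 respiratory genes had a region in replicate 1 (69.4%, against 39.7% of all genes). In replicate 2 there were 26 (72.2%, against 38.4%), and in the pooled list also 26 (72.2%, against 37.8%). The ratio to all genes was thus smaller over whole lists than in the peak set.

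**Figure D2:**
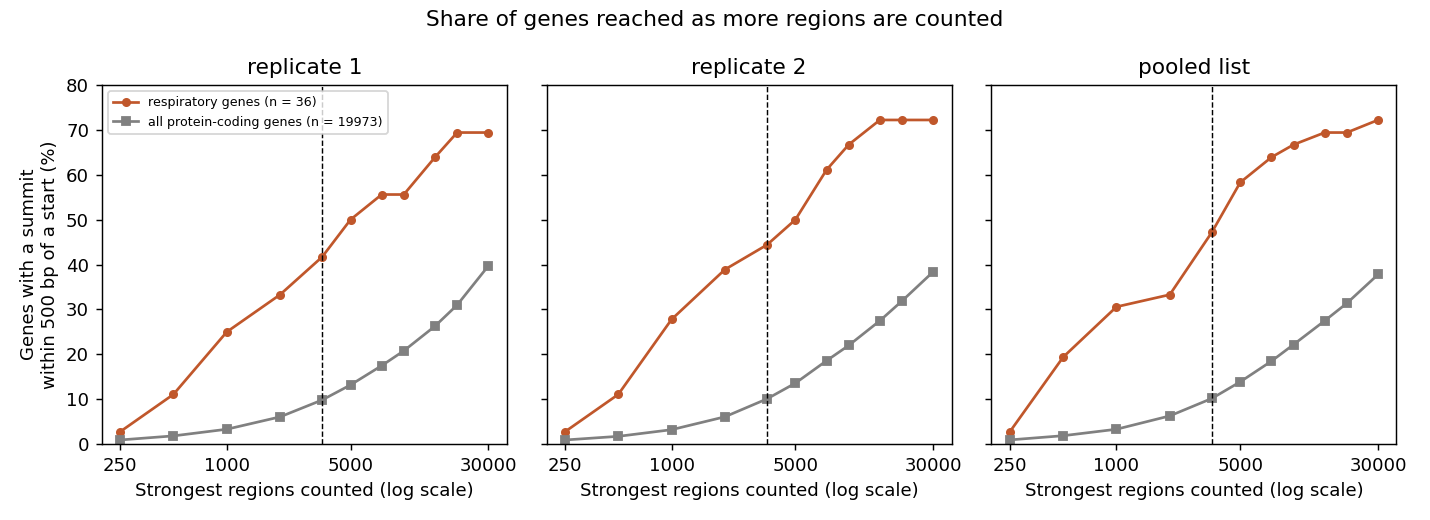
Share of genes with a summit within 500 bp of a start (vertical axis, %) as more of the strongest regions of each list are counted (log axis), for the 36 respiratory genes (orange) and all 19973 protein-coding genes (grey), with a dashed line at 3457 regions. The orange line lies above the grey one at every step in all 3 lists.

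The position of the summits was the next comparison. Upstream of the nearest start of the gene lay 16 of the 17 (94.1%), against 87.4% over all genes with a peak. The median position was -220 bp, against -167 bp. The cyc-2.1 summit counts as upstream of its inner start, but it lies downstream of the start of the longer transcript. Within 200 bp of the start were 6 of 17 (35.3%), against 54.4%. These 17 summits thus lay somewhat farther out, a difference that was not tested. Outside protein-coding genes lay 15 summits, with the exceptions of atp-1 in an exon and cyc-2.1 in an intron. The share over all peaks is not given for this count. All distances are to annotated starts, and many worm transcripts are trans-spliced, so the true start of transcription can lie farther upstream.

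**Figure D3:**
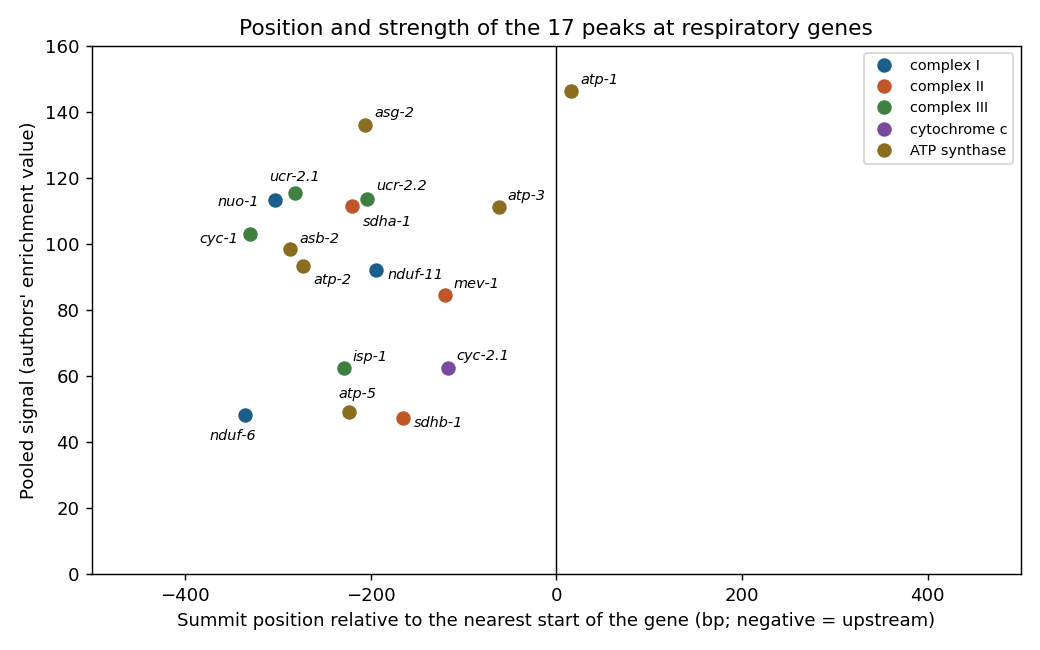
Pooled signal (vertical axis, the authors' enrichment value) against the position of the summit relative to the nearest annotated start (bp, negative upstream) for the 17 peaks, coloured by complex. The points lie between 335 bp upstream and 16 bp downstream, and the strongest, atp-1, is the 1 point right of the start.

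Close neighbours make it unclear to which gene a summit belongs. The gap from the start of a respiratory gene to the next gene upstream had a median of 328 bp, against 1156 bp over all protein-coding genes. It was 333 bp for the genes with a peak and 323 bp for those without one. Of the 17 summits, 11 also lay within 500 bp of the start of another protein-coding gene. No share over all peaks is set beside this count, so it is a description only. The respiratory gene was the nearest in 12 of 17. Over all genes, 1699 of the 2047 with a peak were the nearest to a summit. A head-to-head neighbour within 1000 bp was found at 11 of the 17 genes with a peak (64.7%) and 7 of the 19 without one (36.8%), against 36.8% over all genes with a peak and 17.5% over all genes. The summits with no other start within 500 bp were those of ucr-2.2, sdha-1, cyc-1, asb-2, nduf-11 and cyc-2.1.

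Some respiratory genes lie behind a neighbour on the same strand, as worm genes do in operons, where a promoter ahead of the first gene serves those behind it. A same-strand gene within 500 bp upstream was found for 12 of 36 (33.3%), against 18.1% of all protein-coding genes. Of these 12, 5 had a peak of their own (41.7%), against 8.08% of all genes behind such a neighbour. Of the other 7, the first gene of the run had a peak in 3 (42.9%), against 16.9% of all such genes without a peak. These were nuo-4 behind rnp-7 and syf-2, whose peak ranked 259, nuo-5 behind Y45G12B.2 (rank 949) and ucr-11 behind dad-1 (rank 335). The gene cyc-2.1 followed the ribosomal protein gene rpl-20 at 110 bp, and rpl-20 had the peak of rank 8. This walk along the genes was chosen after the values were seen, and whether these runs are operons was not tested. Of the 24 respiratory genes with no such neighbour, 12 had a peak (50%), against 10.7% of all such genes.

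Several subunits have paralogues, and in 5 of 6 sets at least 1 copy had a peak and 1 had none. The gene for subunit b had its peak at asb-2 (pooled signal 98.6), whereas asb-1, the germline copy, had only a region of signal 8.38 in replicate 1. For subunit g, asg-2 had the peak (136), and asg-1 had no pooled region but a region of signal 17.6 in replicate 1 (rank 3752). Among the core 2-type genes, ucr-2.1 and ucr-2.2 had peaks and ucr-2.3 only a region of signal 11.5 in replicate 2. The sets sdha-1 with sdha-2 and cyc-2.1 with cyc-2.2 had no region at the second gene in any list. Only gas-1 and nduf-2.2, copies of an iron-sulfur subunit of complex I, both lacked a region, and the summit nearest to nduf-2.2 lay at -906 bp.

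By chromosome, 5 of 6 respiratory genes on X had a peak (asb-2, asg-2, sdha-1, ucr-2.1 and ucr-2.2), against 10.8% of all genes there. On the autosomes 4 of 11 had one on chromosome I (all genes 11.7%), 3 of 4 on II (9.57%), 2 of 8 on III (12.3%), 2 of 3 on IV (10.5%) and 1 of 4 on V (8.31%). The X-linked genes with a peak are thus the copies named above as having one in 4 paralogue sets. A difference between X and the autosomes was not tested.

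The windows shown above can be read against all peaks at protein-coding starts (1765 summits) and against windows of the same length centred 220 bp upstream of all 19973 genes. The 17 windows were rich in G and C, with a median of 49.5% and a range of 24.8% to 59.4%, against medians of 42.6% at all start peaks and 33.7% in promoters. All motifs here were searched on both strands. The GATA factor site TGATAA was in 0 of 17, against 25.5% of start peaks and 11% of promoters. Taken as 3 of 17, a rough limit for counting error alone, a count of 0 of 17 allows a share of up to 17.6%. This limit is above the share of promoters. It is below that of start peaks, but a lack of the site relative to start peaks was not tested. The extended intestinal form CTGATAA, which contains TGATAA, was in 0 of 17, against 10.7% of start peaks and 2.45% of promoters, both under that limit. TGATAA is rich in A and T, and the part of base composition in these shares was not tested. A match is only a run of letters, and its absence says only that these letters are not in the window.

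The GC box CCGCCC was in 3 of 17 windows (17.6%), those of atp-1, cyc-2.1 and isp-1, against 4.82% of start peaks and 2.27% of promoters. The nuclear receptor core AGGTCA was in 0 of 17, against 3.00% of start peaks and 2.74% of promoters. The E-box CACGTG was also in 0 of 17, against 4.31% of start peaks and 1.59% of promoters. The repeat GAGAGAGA was in 0 of 17, against 3.57% of start peaks and 1.04% of promoters. GCATGCGC, the core of the site of NRF-1, a regulator of respiratory genes in vertebrates, was in 0 of 17, against 0.397% of start peaks and 0.13% of promoters. Each 0 of 17 here allows a share of up to 17.6%, above the start-peak and promoter shares, so no lack can be read from it. A block TTTTTTTT was in 1 of 17 (5.88%), at atp-3, against 5.95% of start peaks and 13% of promoters.

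Among all 2080 words of 6 bases, counted with their reverse complements, 3 were in 6 of the 17 windows, and they were picked after these counts were seen, so no test is given. GCGAGA was in 35.3%, against 10.4% of start peaks and 3.16% of promoters. CGTCTC was also in 35.3%, against 13.8% of start peaks and 3.50% of promoters. GAGAAA was in 35.3% too, but its share at start peaks was 23.9% and in promoters 17.1%. These words were picked by the number of windows. Some words in fewer windows stood higher in ratio to start peaks, such as ACGGGC (23.5%, against 2.21% of start peaks and 1.16% of promoters). At least 1 of GCGAGA and CGTCTC was in 8 of 17 (47.1%), against 21.8% of start peaks and 6.31% of promoters. Both were in 4 of the windows, and they shared bases only at nuo-1. The 8 windows were those of asb-2, atp-2, cyc-2.1, mev-1, nduf-11, nuo-1, ucr-2.1 and ucr-2.2, which span all 5 groups of subunits. Both words are rich in G and C compared with worm promoters, and the part of base composition in these shares was not tested.

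**Figure D4:**
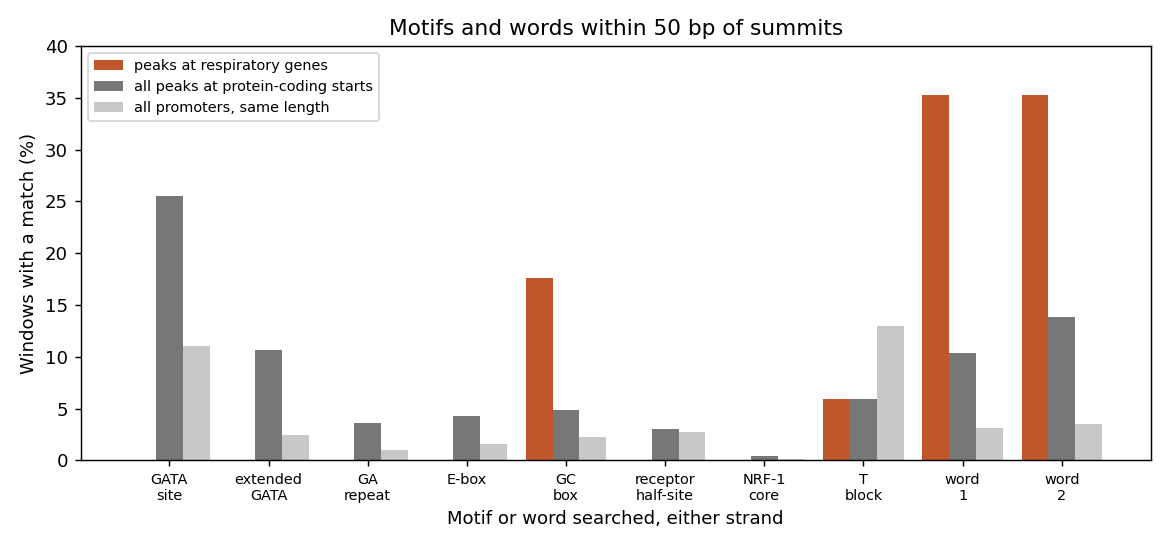
Share of 101 bp windows (vertical axis, %) with a match on either strand for 8 motifs, word 1 (GCGAGA) and word 2 (CGTCTC), in the 17 windows at respiratory genes (orange), all 1765 peaks at protein-coding starts (dark grey) and promoter windows of all genes (light grey). Both words reach 35.3% in the respiratory windows. The GATA site is in 0 of 17, which allows a share of up to 17.6%, above the 11% of promoters.

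Other genes of the pathway were counted in the same way, from lists chosen with earlier results of these data known, and each count is to be read against the 10.2% of all protein-coding genes with a peak. Cytochrome oxidase, the last complex of the chain, had peaks at 5 of 7 subunit genes, led by cox-6B (pooled signal 243, rank 53), cox-5A (243, rank 54) and cox-5B (243, rank 55). All 3 outranked every one of the 17 peaks described above. ADP/ATP exchange and the inhibitors of the ATP synthase had 3 of 6, with the carrier gene ant-1.1 at 107 (rank 556) and the inhibitor genes mai-1 at 64.7 (rank 1870) and mai-2 at 52.9 (rank 2817). Assembly factors had 1 of 10, a share (10%) near that of all genes, at the copper chaperone gene sco-1 at 144 (rank 230), while nuaf-1 of complex I assembly ranked 3538, just outside the set. Synthesis of ubiquinone, the carrier between complexes I or II and III, had 0 of 8, with coq-5 nearest at rank 3777, and the subunits lpd-5 and hpo-18 had 0 of 2, lists too short to set 0 apart from the share of all genes. The mitochondrial stress response had 2 of 7, the chaperone gene hsp-6 at 97.7 (rank 721) and the regulator atfs-1 at 82.9 (rank 1067).

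The count of respiratory genes was read under other rules, each beside its own background. Narrowing the window to 250 bp gave 11 of 36 (all genes 6.84%) and lost asb-2, atp-2, cyc-1, nduf-6, nuo-1 and ucr-2.1, whose summits lie farther out. Widening it to 1000 bp gave 18 (13.2%) and added nduf-2.2. The 1728 strongest peaks reached 12 (5.51%), and all pooled regions with a deposited q under 0.05 reached 23 (20.7%), adding nuo-2, nuo-3, nuo-6, nduf-9, ucr-1 and atp-4. Without replicate 1 the count was 16 (10.1%), without replicate 2 it was 15 (9.85%), and counting only the gene nearest to a summit gave 12 (8.51%). With the 5′ end of the gene record alone the same 17 genes were found (9.6%), as they were when any overlap of the region with the window counted (11.4%).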

How the data were processed

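ChIP-seq lists of 2 biological replicates (1 group) were used in build ce11. Per the deposited file listings, each list holds peaks and background together, the pooled list joins both replicates, and the IDR-thresholded set derives from all 3. That set was the same as a cut on pooled signal, since no pooled region as strong as its weakest peak was missing (3457 of 3457). The signal is the authors' deposited enrichment value, whose scale differs between lists, so regions were ranked within a list. The deposited −log10 q-value is also the authors' own. The aligner, the caller, their versions and the control strain were not given in the sources used here. With the read depth unknown, the limit given for a count of 0 covers counting error only. Lists in ce10 were not used.

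Summits were compared with Ensembl annotation release 115 of WBcel235, and the gene value is that of the strongest region with a summit within 500 bp of a start. Every member with a peak is named with its values, members without one are named with their values down to rank 10000, and of other lists the 3 with the strongest peaks are named, with the neighbours that share a summit. The genes coq-5 and nuaf-1, just outside the set, ndua-13 and the first genes of same-strand runs were chosen after their values were seen. Members and lists were chosen with earlier results of these data known, so no test was made, and shares stand beside those of all 19973 genes. Motifs were searched within 50 bp of the summit. The code was tested on simulated data with planted summits. Python 3.11.15, numpy 2.4.6, pandas 2.3.3, scipy 1.17.1 and matplotlib 3.10.9 were used.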

Additional observations from a re-analysis of the deposited data

How the results depend on the processing

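Over 9 alternatives for each of 6 counts, 47 of 54 values stayed within 1.5 times the reported one and 7 did not. A window of 250 bp gave 11 of 36 respiratory genes, 1 of 13 in complex I and 2 of 7 in complex III, against 6.84% of all genes. The complex I share (7.69%) was then near that of all genes. Pooled regions with q under 0.05 gave 7 of 13 in complex I, against 20.7% of all genes. Counting only the nearest gene gave 2 of 7 in complex III, against 8.51%. The single cytochrome c gene with a peak, cyc-2.1, was lost among the 1728 strongest peaks (all genes 5.51%) and without replicate 2 (9.85%), with 0 of 2 in both. Leaving out a replicate gave 15 to 16 of 36 respiratory genes and 0 to 1 of 2 cytochrome c genes, against 9.85% to 10.1% of all genes. The cause of these shifts was not tested beyond the distances and ranks given for each gene. No paired analysis was possible because the samples form 1 group. With no read counts in the lists, how depth limits the weaker regions cannot be told.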
